A study of Mus musculus with 8 samples.

Results

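Ribosome footprints of inguinal white adipose tissue (iWAT) were compared between mice with an adipocyte knockout of Ythdf1 and their controls after cold exposure. The comparison used the 4 Ribo-seq libraries of a series of 8 libraries, 2 for each genotype, and every gene with a mean of at least 0.5 RPKM over these 4 libraries. RPKM, reads scaled to length and library size, is the unit of the deposited tables. The length is that of the coding sequence for Ribo-seq and of the whole transcript for RNA-seq. A gene missing from a Ribo-seq library's table counted as 0. These rules kept 12602 of the 15559 genes found in any Ribo-seq table, out of 17264 genes in any table of the series. The control mice, Y1CTL, were Ythdf1 flox/flox without Cre, and the knockout mice, Y1cKO, carried the same floxed alleles, which flank exon 4, together with Adipoq-Cre. Both groups were C57BL/6 males, 9 weeks old, kept at 4 °C for 7 days. Adipoq-Cre acts in mature adipocytes, whereas the libraries came from whole fat pads, which also hold vessels, immune cells and fibroblasts. It is not stated whether the 2 libraries of a genotype came from separate animals, so that tests measure only the spread between these libraries. At the minimum, Pde1c and Cct6b were just inside with means of 0.5006 and 0.5007 RPKM, and Styxl1 and Fam171a2 just outside with 0.4995 and 0.4994 RPKM.

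Ribo-seq sequences the short mRNA fragments that a translating ribosome shields from nuclease, so that the number of fragments on a coding sequence follows both how much of the mRNA is present and how heavily it is translated. YTHDF1 is a cytoplasmic protein that binds mRNAs carrying N6-methyladenosine (m6A) and is best known for promoting their translation. Cold drives the formation of beige adipocytes in iWAT, cells rich in mitochondria that burn fuel through the uncoupling protein UCP1, while the surrounding white adipocytes take up, make and store fat.

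A library held 7364523 to 11862838 reads assigned to genes, and 3 reads on a coding sequence of 1 kb stood for 0.253 to 0.407 RPKM. Intervals and floors of this kind cover counting error only. The genes kept held at least 99.9% of the reads of each library. All 7 adipocyte markers were present in every library, and their footprints summed to 49196 and 72473 RPKM in Y1CTL and 55521 and 57505 RPKM in Y1cKO. In the RNA-seq libraries, B cell markers summed to 179 RPKM in Y1CTL replicate 2 and to at most 1.504 RPKM in the others. Their footprints instead summed to 514 and 488 RPKM in Y1CTL and 569.9 and 626 RPKM in Y1cKO.

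The targeted gene, Ythdf1 (ENSMUSG00000038848), had footprints of 17.3 and 15.99 RPKM in Y1CTL and 12.7 and 15.7 RPKM in Y1cKO. The Y1cKO libraries were the lowest of the 4, although Y1cKO replicate 2 was close to the controls (log2 fold change -0.23, SE 0.17, adjusted p = 1.00 from limma). The value covers the whole coding sequence and all cells of the pad. Footprints on exon 4 alone or in adipocytes alone were not measured, and the reason for the small difference was not tested. The paralogous readers overlapped between the genotypes, with 39.1 and 34.2 RPKM in Y1CTL and 31.8 and 37.98 RPKM in Y1cKO for Ythdf2, and 39.5 and 33.2 RPKM in Y1CTL and 28.3 and 36.1 RPKM in Y1cKO for Ythdf3. Over 20 writers, readers and erasers of m6A, 14 were lower and 6 higher in Y1cKO (median log2 fold change -0.12, -0.27 to 0.011 with each library left out in turn, the latter without Y1cKO replicate 1). Mettl14, a subunit of the methyltransferase, had 14.7 and 14.3 RPKM in Y1CTL and 9.99 and 12.3 RPKM in Y1cKO, with both Y1cKO libraries below both Y1CTL libraries. Zc3h13 and Rbm15, which help place the methyltransferase on RNA, stood in the same order, with 5.23 and 6.59 RPKM in Y1CTL and 4.48 and 4.44 RPKM in Y1cKO and with 5.84 and 6.45 RPKM in Y1CTL and 4.63 and 5.14 RPKM in Y1cKO. Values of the catalytic subunit Mettl3 (5.52 and 7.57 RPKM in Y1CTL and 5.801 and 7.76 RPKM in Y1cKO) and of the eraser Fto (75.2 and 77.5 RPKM in Y1CTL and 79.5 and 74.7 RPKM in Y1cKO) overlapped.

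Footprints in this tissue were concentrated on fat synthesis, fat binding and oxidative phosphorylation. Fasn, fatty acid synthase, alone took 4.21% to 4.96% of all reads, Scd1, the main stearoyl-CoA desaturase, 2.11% to 2.53%, and mt-Co1, a mitochondrially encoded subunit of cytochrome c oxidase, 1.79% to 3.02%. The 10 genes with the highest mean RPKM held 11.5% to 13.6% of the reads, and the 50 highest 26.6% to 29.2%. Per coding length, mt-Atp8 had 44668 and 23632 RPKM in Y1CTL and 51212 and 47118 RPKM in Y1cKO, and Fabp4, the fatty acid binding protein of adipocytes, had 29745 and 35915 RPKM in Y1CTL and 31556 and 32885 RPKM in Y1cKO. Scd1 had 19794 and 23317 RPKM in Y1CTL and 23760.0 and 20754 RPKM in Y1cKO. Cfd, the secreted serine protease adipsin, had 11105 and 24982 RPKM in Y1CTL and 15399 and 16548 RPKM in Y1cKO. For Fabp4, Scd1 and Cfd the Y1cKO libraries lay between the Y1CTL libraries or overlapped them, and for Cfd the Y1CTL libraries were the lowest and the highest of the 4.

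Between the genotypes, the footprints of most genes differed little. The median log2 fold change, Y1cKO over Y1CTL on the log2(RPKM + 0.5) scale, was 0.0071, and 90% of genes lay between -0.36 and 0.40. Of all genes tested, 96.9% were within 1.5-fold and 99.6% within 2-fold, and 26 genes were beyond 2-fold in each direction. With limma, 0 genes (0%) passed an adjusted p of 0.05, and 347 genes (2.75%) had an unadjusted p under that value. The limma method voom, applied to reads computed back from RPKM, also called 0 genes, with 293 at an unadjusted p under 0.05. The 2 Y1cKO values exceeded the 2 Y1CTL values in 1940 genes (15.4%) and were the 2 lowest in 1774 genes (14.1%). A log2 difference beyond 1 together with an unadjusted p under 0.05 was met by 20 lower genes (0.159%) and 17 higher genes (0.135%), of which 15 and 12 had a mean under 5 RPKM. The plot of fold change by level shows how the spread narrows with abundance.

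**Figure D1:**
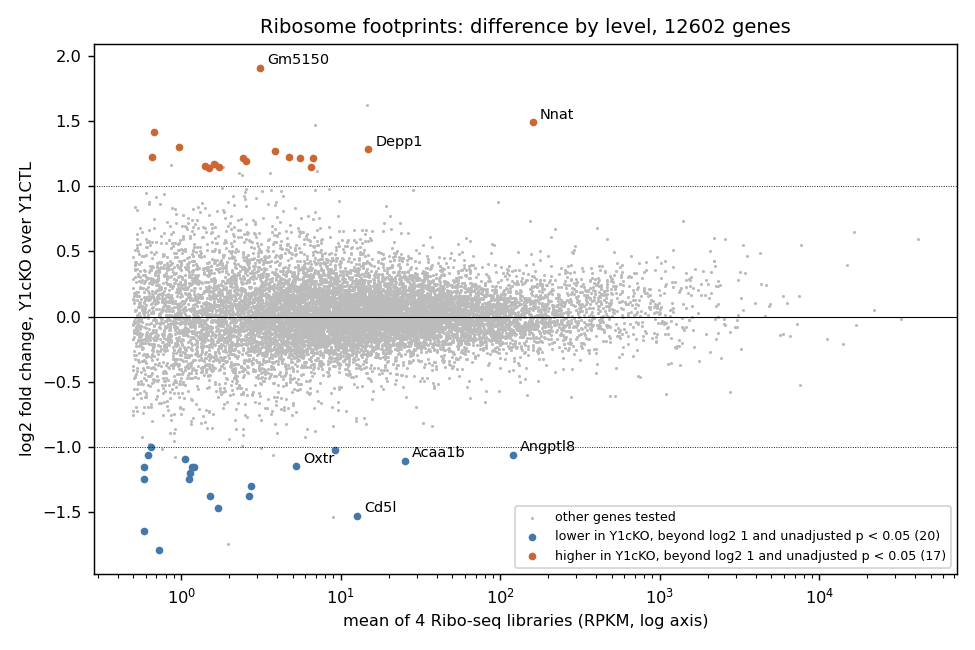
Each point is 1 of 12602 genes, with the mean RPKM of the 4 Ribo-seq libraries on a logarithmic horizontal axis and the log2 fold change of Y1cKO over Y1CTL on the vertical axis; blue and orange points are the 20 lower and 17 higher genes beyond a log2 change of 1 with an unadjusted p under 0.05. Most coloured points lie at the low end of the level axis, and Nnat and Angptl8 are the most abundant ones named.

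The 2 controls lay farther apart than any other pair of libraries. Between them 451 genes (3.58%) differed more than 2-fold, against 215 genes (1.71%) between the Y1cKO libraries and 203 to 341 genes (1.61% to 2.71%) in the 4 pairs of a Y1CTL with a Y1cKO library. For the 4575 genes averaging 20 RPKM or more these numbers were 110 within Y1CTL, 15 within Y1cKO and 25 to 69 between genotypes. The outcome of the test depended on which control was left out, on the assumption that the lone control varies like the other libraries. Without Y1CTL replicate 1, 49 genes passed an adjusted p of 0.05 in limma, 7 lower and 42 higher. Without Y1CTL replicate 2, 19 genes passed, 13 lower and 6 higher. The 5 genes called in both cases, Elovl3, Fabp3, Gk, Slc27a2 and Jchain, were higher in Y1cKO in the former and lower in the latter. Elovl3, a fatty acid elongase of beige and brown fat, had 809 and 63.97 RPKM in Y1CTL and 392 and 341 RPKM in Y1cKO, so that both Y1cKO libraries lay between the controls. The glycerol kinase Gk, with 301 and 45.4 RPKM in Y1CTL and 86.8 and 102 RPKM in Y1cKO, and Fabp3, a fatty acid binding protein of oxidative tissue, with 3559 and 476 RPKM in Y1CTL and 1210.3 and 1220.5 RPKM in Y1cKO, showed the same order. With either Y1cKO library left out, 0 genes passed.

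**Figure D2:**
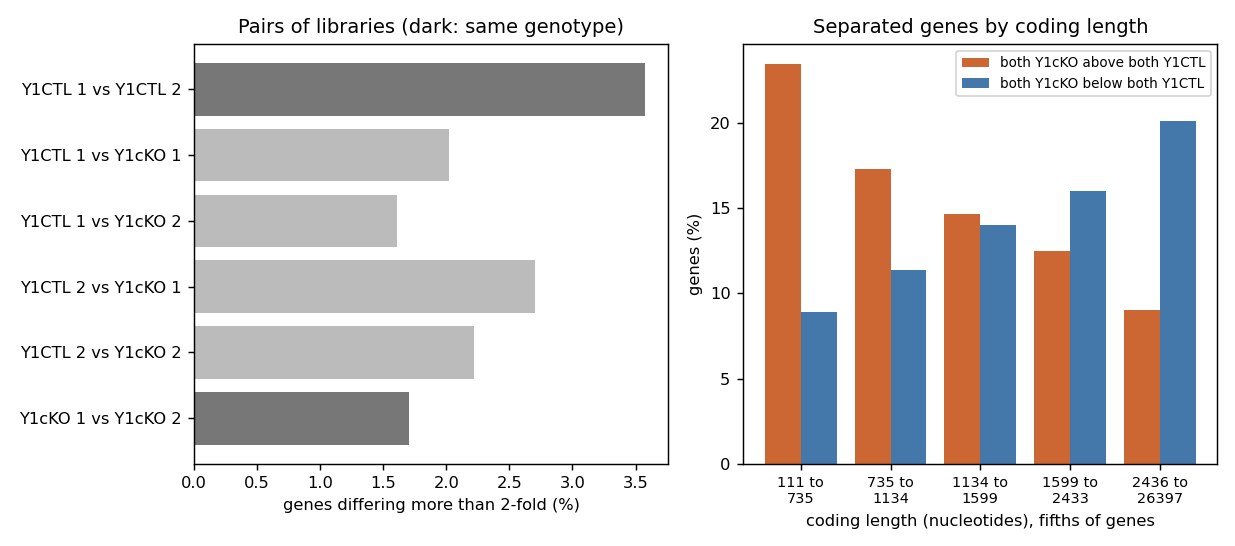
Left, the percentage of the 12602 genes that differ more than 2-fold in log2(RPKM + 0.5) between each pair of Ribo-seq libraries, dark bars for pairs of 1 genotype; right, for 5 groups of genes by coding length, the percentage with both Y1cKO libraries above (orange) or below (blue) both Y1CTL libraries. The pair of controls has the longest bar at 3.58%, and the orange bars shorten from 23.5% to 9.04% as coding length grows.

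Among the 20 genes with lower footprints in Y1cKO, Oxtr, the oxytocin receptor, had 5.58 and 9.33 RPKM in Y1CTL and 2.26 and 3.898 RPKM in Y1cKO (log2 fold change -1.15, SE 0.32), from 25 to 80 reads a library. Pla2g2e, a secreted phospholipase A2, had 15.04 and 9.88 RPKM in Y1CTL and 4.196 and 7.79 RPKM in Y1cKO (log2 fold change -1.03, SE 0.32). In both genes the Y1cKO libraries were the lowest of the 4. Acaa1b, a peroxisomal thiolase with a close copy in Acaa1a, had 46.2 and 24.02 RPKM in Y1CTL and 13.1 and 17.6 RPKM in Y1cKO, and Angptl8, a liver and fat hormone that restrains lipoprotein lipase, had 134 and 190.0 RPKM in Y1CTL and 64.6 and 89.8 RPKM in Y1cKO. Those last 2 genes were the only ones of the 20 that averaged 20 RPKM or more. Cd5l, a secreted macrophage protein, had 22.6 and 14.9 RPKM in Y1CTL and 4.18 and 8.59 RPKM in Y1cKO, with 42 reads in its lowest library, and the general macrophage markers C1qa (505 and 577 RPKM in Y1CTL and 535 and 503 RPKM in Y1cKO) and Lyz2 (2393 and 2059 RPKM in Y1CTL and 2106 and 2676 RPKM in Y1cKO) overlapped. Of 13 macrophage markers 7 were lower and 6 higher (median -0.020). In bulk tissue fewer cells of a type and fewer footprints per cell cannot be told apart.

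Most of the other lower genes rested on very few reads. Of the 20, 14 had fewer than 10 reads in at least 1 library. AA467197 and Camk2n2 were the only genes with 0 reads in both Y1cKO libraries, against 7 and 1 reads and 5 and 1 reads in the Y1CTL libraries, where 0 reads allow up to 3 by counting error, so that no fold is given. Ypel4, Mup6, Tmem52, Tmem273, Inka2, Fam228b, Fam83d, Syndig1l, Spaca1 and Masp1 had 0 to 4 reads in their lowest library. Mup6 belongs to a cluster of near-identical genes that may share reads. Mogat2, a monoacylglycerol acyltransferase, had 25 reads in each Y1CTL and 6 in each Y1cKO library (2.103 and 3.39 RPKM in Y1CTL and 0.630 and 0.663 RPKM in Y1cKO), and Alox15, a lipoxygenase, 67 and 80 against 29 and 20 reads.

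Among the 17 higher genes, Nnat, Me3 and Depp1 had the most reads. Nnat, which encodes neuronatin, had 69.05 and 92.98 RPKM in Y1CTL and 312 and 164 RPKM in Y1cKO, with Y1cKO replicate 1 far above Y1cKO replicate 2. Depp1, a target of FoxO factors linked to autophagy, had 10.3 and 6.84 RPKM in Y1CTL and 21.7 and 20.7 RPKM in Y1cKO (log2 fold change 1.29, SE 0.21). The Y1cKO libraries nearly coincided at this gene, and it was called without Y1CTL replicate 1 but not without Y1CTL replicate 2 (adjusted p = 0.0136 and 0.099 from limma, against 1.00 with all libraries). Me3, the mitochondrial NADP-dependent malic enzyme, had 5.68 and 2.398 RPKM in Y1CTL and 10.6 and 7.45 RPKM in Y1cKO, and Cd160, a receptor of natural killer and T cells, had 6.08 and 2.202 RPKM in Y1CTL and 8.15 and 10.6 RPKM in Y1cKO. In both genes Y1CTL replicate 2 was the lowest library. Gm5150, a member of the signal regulatory protein family with close relatives, had the largest log2 fold change of all genes (log2 fold change 1.91, SE 0.48), from 4 and 13 reads in Y1CTL and 37 and 47 in Y1cKO. Tmem42 had 10 and 8 reads against 30 and 20, and Dph3, of diphthamide synthesis on elongation factor 2, had 6 in each Y1CTL library against 15 and 16. Syce1, Fmr1nb, 3300002I08Rik, Cox6a2, Tmem56, Dnajc22, Sft2d1, Gm8369, Spata17 and Ramp1 had 0 to 7 reads in their lowest library.

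Genes that averaged 20 RPKM or more are less bound by counting error. Those named at this level were chosen for separated genotypes and the smallest p in each direction, so that their separation is no result. Lower in both Y1cKO libraries were Isg15, a ubiquitin-like protein induced by interferon, with 40.5 and 33.5 RPKM in Y1CTL and 24.6 and 20.6 RPKM in Y1cKO (log2 fold change -0.70, SE 0.17), and Hmox1, the heme oxygenase, with 72.6 and 73.5 RPKM in Y1CTL and 46.7 and 53.9 RPKM in Y1cKO (log2 fold change -0.54, SE 0.14). Hmox1 had nearly equal controls. Aldh3b2, an aldehyde dehydrogenase, had 28.7 and 34.02 RPKM in Y1CTL and 21.5 and 18.9 RPKM in Y1cKO. Lamtor3, a subunit of the Ragulator complex that tethers mTORC1 to lysosomes, had 36.03 and 37.2 RPKM in Y1CTL and 25.2 and 26.5 RPKM in Y1cKO (log2 fold change -0.50, SE 0.13), and Vhl, which targets hypoxia-inducible factors for degradation, had 24.8 and 27.01 RPKM in Y1CTL and 18.01 and 18.8 RPKM in Y1cKO (log2 fold change -0.48, SE 0.14). In these 2 genes each genotype's libraries lay within a narrow range, which choice by a small p favours. Top1, DNA topoisomerase I, had 37.3 and 40.2 RPKM in Y1CTL and 25.3 and 29.6 RPKM in Y1cKO, and Chd4, the helicase of the NuRD complex, had 37.4 and 59.7 RPKM in Y1CTL and 22.03 and 31.1 RPKM in Y1cKO (log2 fold change -0.84, SE 0.27). Their RNA-seq values stood in the opposite order, with 14.5 and 16.9 RPKM in Y1CTL and 20.7 and 23.2 RPKM in Y1cKO for Top1, and 57.9 and 54.4 RPKM in Y1CTL and 73.4 and 76.4 RPKM in Y1cKO for Chd4. Lst1, a leukocyte transmembrane protein, had 25.1 and 26.8 RPKM in Y1CTL and 18.1 and 17.9 RPKM in Y1cKO. By RNA-seq Isg15, Hmox1, Lamtor3 and Vhl overlapped, Aldh3b2 stood in the opposite order to its footprints, and Lst1 in the same order. The RNA-seq libraries held 3958284 and 4963613 assigned reads in Y1CTL and 12211351 and 16429015 in Y1cKO.

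Higher at this level was Bckdhb, the E1 beta subunit that degrades branched-chain amino acids, with 76.4 and 60.3 RPKM in Y1CTL and 132 and 119 RPKM in Y1cKO (log2 fold change 0.88, SE 0.16). It had the smallest p of the genes higher at this level and was called without Y1CTL replicate 1 but not without Y1CTL replicate 2 (adjusted p = 0.0321 and 0.15 from limma, against 1.00 with all libraries). Slc2a5, the fructose transporter, had 45.7 and 50.4 RPKM in Y1CTL and 76.5 and 69.7 RPKM in Y1cKO (log2 fold change 0.60, SE 0.14), and Gsta4, a glutathione transferase that clears lipid peroxidation products, had 139 and 156 RPKM in Y1CTL and 204 and 215 RPKM in Y1cKO (log2 fold change 0.51, SE 0.14). The 4 Y1cKO values of these 2 genes exceeded the controls by more than the controls differed, which choice by a small p favours. Mustn1 had 39.8 and 48.02 RPKM in Y1CTL and 65.8 and 63.4 RPKM in Y1cKO, and Bola2, which serves iron-sulfur transfer, had 29.7 and 30.5 RPKM in Y1CTL and 46.5 and 41.6 RPKM in Y1cKO. Pts, of tetrahydrobiopterin synthesis, had 44.1 and 38.03 RPKM in Y1CTL and 61.6 and 53.8 RPKM in Y1cKO, and Kxd1, of lysosome positioning, had 27.1 and 24.4 RPKM in Y1CTL and 33.5 and 39.4 RPKM in Y1cKO. Dgcr6 and Smim26 had the same order, and so did H4c11, a histone gene with near-identical copies. Bckdhb and Slc2a5 overlapped by RNA-seq, with 61.1 and 42.3 RPKM in Y1CTL and 54.8 and 64.7 RPKM in Y1cKO, and with 8.96 and 16.97 RPKM in Y1CTL and 13.4 and 12.5 RPKM in Y1cKO.

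**Figure D3:**
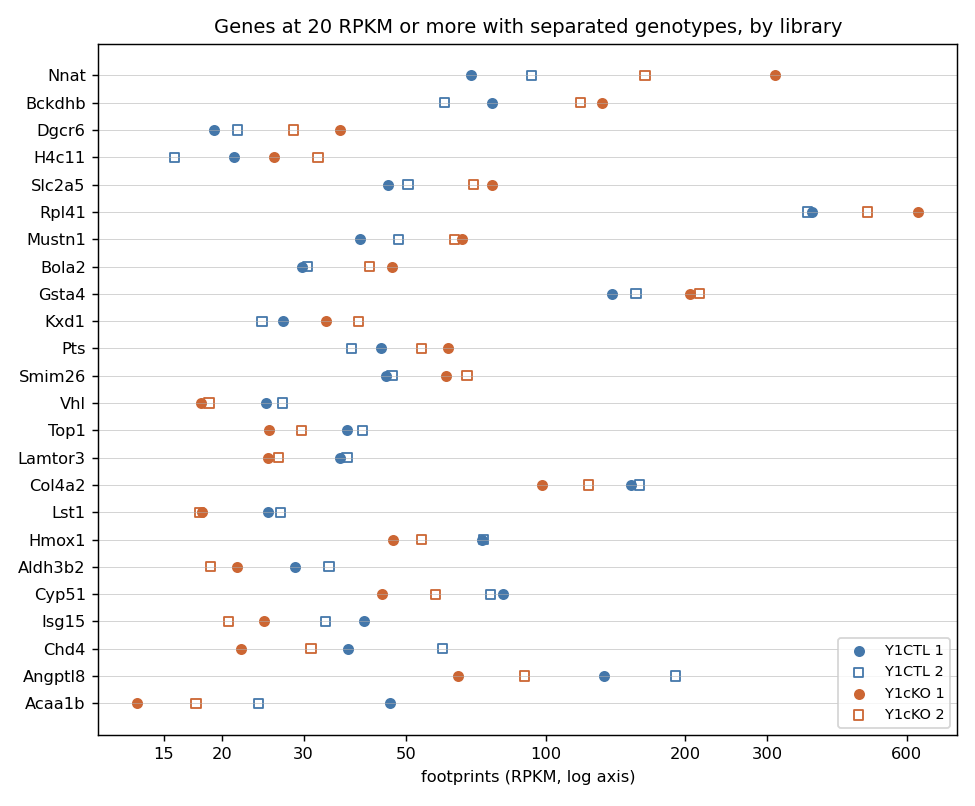
Footprints in RPKM, on a logarithmic axis, of 24 genes averaging 20 RPKM or more, chosen for separated genotypes and the smallest p in each direction; filled circles are replicate 1 and open squares replicate 2, blue for Y1CTL and orange for Y1cKO. The rule makes the colours separate in every line, and the reader should see how wide the gap is, narrow for Kxd1 and wide for Bckdhb and Angptl8.

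Gene lists were described by how many members were higher or lower in Y1cKO, beside 6107 lower and 6495 higher genes of all tested, and by their median log2 fold change, beside 0.0071 over all genes. Of 40 lists of function, 15 had a median below 0 and 25 above 0. With each library left out in turn, the median of all genes itself ranged from -0.033 to 0.047. Under these conditions 7 lists kept a median below both 0 and that of all genes (interferon-stimulated genes, cholesterol synthesis, heat shock proteins, lipoprotein lipase and lipid uptake, de novo lipogenesis, aminoacyl-tRNA synthetases and the proteasome) and 8 kept one above both (mitochondrially encoded genes, complexes III and IV, cytosolic ribosomal proteins, translation factors, immediate early genes, chemokines, and iron, heme and antioxidant genes). The margin was small for translation factors and for iron, heme and antioxidant genes. Without Y1CTL replicate 2 their medians were 0.013 and 0.019, against 0.010 over all genes. No member of any list passed an adjusted p of 0.05 in limma with all libraries.

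**Figure D4:**
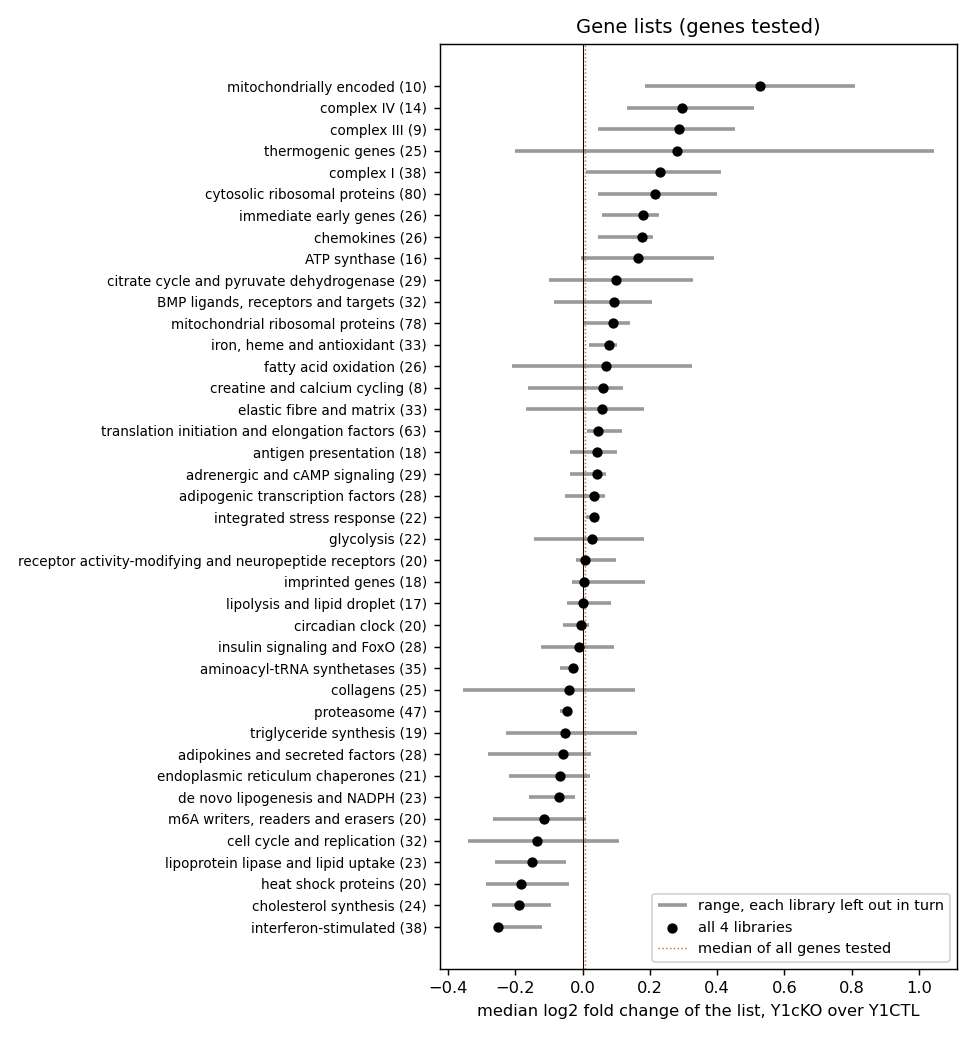
The median log2 fold change of Y1cKO over Y1CTL for each list of function, with the number of genes tested in parentheses; black points use all 4 libraries, grey lines span the 4 medians obtained with 1 library left out, and the dotted line is the median of all genes. Interferon-stimulated genes lie lowest at -0.25 and mitochondrially encoded genes highest at 0.53, while the grey line of thermogenic genes reaches from -0.20 to 1.04.

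Interferon-stimulated genes, which carry out antiviral defence, had the lowest median of the lists of function with all libraries kept. Of 38 tested, 32 were lower and 6 higher in Y1cKO (median -0.25, -0.25 to -0.12 with each library left out, the weakest without Y1CTL replicate 1). The Y1cKO values were the 2 lowest in 18 of them, against 14.1% of all genes, and the 2 highest in 4, against 15.4%. An unadjusted p under 0.05 was found for 5 of them, beside 2.75% of all genes. Besides Isg15, these were the exonuclease Isg20 (6.56 and 4.68 RPKM in Y1CTL and 2.92 and 3.44 RPKM in Y1cKO), Ifi44 (8.39 and 5.04 RPKM in Y1CTL and 4.07 and 3.41 RPKM in Y1cKO), the oligoadenylate synthetase Oas1a (8.19 and 7.03 RPKM in Y1CTL and 5.44 and 5.13 RPKM in Y1cKO) and Ifit2, which binds viral RNA (12.97 and 10.5 RPKM in Y1CTL and 9.097 and 6.67 RPKM in Y1cKO). Y1CTL replicate 1 was the highest library for all of these 5 genes. Rtp4, with 44.2 and 50.4 RPKM in Y1CTL and 39.8 and 36.7 RPKM in Y1cKO, and the RNA sensor Ifih1, with 16.1 and 20.6 RPKM in Y1CTL and 14.5 and 14.6 RPKM in Y1cKO, had Y1CTL replicate 2 as the highest instead. The transcription factors Stat2 (16.6 and 16.4 RPKM in Y1CTL and 15.6 and 16.8 RPKM in Y1cKO) and Irf7 (9.899 and 9.01 RPKM in Y1CTL and 9.89 and 8.15 RPKM in Y1cKO) overlapped. Cxcl10, an interferon-induced chemokine, stood in the opposite order (13.5 and 11.1 RPKM in Y1CTL and 15.02 and 13.6 RPKM in Y1cKO). By RNA-seq the list's median level was 6.38 and 5.59 RPKM in Y1CTL and 6.54 and 4.495 RPKM in Y1cKO, which overlapped. Ifit3 and Ifit3b are near-identical copies and may share reads.

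Interferon acts on these genes through a promoter element with 2 copies of a short repeat, which is shown here for the 4 members with the lowest p that hold it. Promoters from RefSeq (GRCm38.p6), matched by symbol, were searched over 250 bases before the start for GAAANNGAAA on both strands, a pattern chosen after the values were seen. It was found in 288 of 10011 tested genes with a promoter (2.88%) and in 15 of 30 list members with one (50%). The windows of 30 bases run 5′ to 3′ on the gene's strand, capitals mark the match, and in Trim30a it lies on the opposite strand.
Isg15: aaaggaaaccGAAACAGAAAatagctctgg
Oas1a: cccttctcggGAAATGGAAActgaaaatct
Trim30a: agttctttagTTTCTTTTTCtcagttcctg
Irgm1: cctgtttcaaGAAATAGAAAccgaaactga

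These genes lie on chromosomes 4, 5, 7 and 11, and the match begins 66 bases before the start of Isg15, 20 before that of Oas1a, 36 before that of Trim30a and 30 before that of Irgm1. Trim30a, a TRIM protein that restrains inflammatory signaling, had footprints of 19.4 and 18.4 RPKM in Y1CTL and 15.1 and 15.2 RPKM in Y1cKO, and Irgm1, an immunity-related GTPase, had 42.3 and 35.97 RPKM in Y1CTL and 29.7 and 35.8 RPKM in Y1cKO. Members with a match had a median log2 fold change of -0.25 and members without one of -0.19. Both Y1cKO libraries were the lowest in 8 of the 15 members with a match and in 7 of the 15 without one, a difference that was not tested.

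Heat shock proteins, chaperones that fold and refold cytosolic and mitochondrial proteins, were lower in 17 of 20 genes (median -0.18, -0.29 to -0.042 with each library left out, the weakest without Y1CTL replicate 1). Hspa4l, a nucleotide exchange factor for HSP70, had 23.3 and 22.3 RPKM in Y1CTL and 14.3 and 18.1 RPKM in Y1cKO, and its relative Hspa4 had 92.7 and 96.1 RPKM in Y1CTL and 72.1 and 82.7 RPKM in Y1cKO. Hsp90aa1, the inducible cytosolic HSP90, had 481 and 424 RPKM in Y1CTL and 315 and 391 RPKM in Y1cKO, and the mitochondrial chaperonin Hspe1 155 and 106 RPKM in Y1CTL and 95.9 and 96.6 RPKM in Y1cKO. In these 4 genes both Y1cKO libraries were the lowest, as in 7 members in all, beside 14.1% of all genes. The most abundant member, the constitutive HSP70 Hspa8, had 1892 and 1164 RPKM in Y1CTL and 1000.1 and 1318 RPKM in Y1cKO and was high in Y1CTL replicate 1 alone. Of 21 endoplasmic reticulum chaperones 19 were lower, by less (median -0.067), and the median was 0.023 without Y1cKO replicate 1, the lowest library of Hsp90b1 (383 and 346 RPKM in Y1CTL and 296 and 356 RPKM in Y1cKO), Pdia6 (200.1 and 201 RPKM in Y1CTL and 156 and 206 RPKM in Y1cKO) and Calr (1132 and 1209 RPKM in Y1CTL and 961 and 1186 RPKM in Y1cKO).

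Cholesterol synthesis was lower in 18 of 24 genes (median -0.19, -0.27 to -0.094 with each library left out, the weakest without Y1cKO replicate 1). Cyp51, the lanosterol demethylase, had 80.9 and 75.9 RPKM in Y1CTL and 44.2 and 57.8 RPKM in Y1cKO (log2 fold change -0.63, SE 0.17), and Sqle, squalene epoxidase, had 29.03 and 30.1 RPKM in Y1CTL and 18.3 and 24.9 RPKM in Y1cKO. Ebp and Nsdhl, of the later steps, had 50.6 and 65.5 RPKM in Y1CTL and 44.6 and 45.6 RPKM in Y1cKO, and 120.2 and 152 RPKM in Y1CTL and 98.6 and 119 RPKM in Y1cKO. Both Y1cKO libraries were the lowest in 9 genes and the highest in 1, beside 14.1% and 15.4% of all genes. Early and regulatory members did not all share the order. Hmgcs1, which makes HMG-CoA, had 344 and 360.4 RPKM in Y1CTL and 335 and 263 RPKM in Y1cKO, whereas Insig1, which holds SREBP in the endoplasmic reticulum, had 487 and 411 RPKM in Y1CTL and 473 and 476 RPKM in Y1cKO and overlapped. In the heat maps of list members, Y1cKO replicate 1 is the lowest library for most of these genes.

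**Figure D5:**
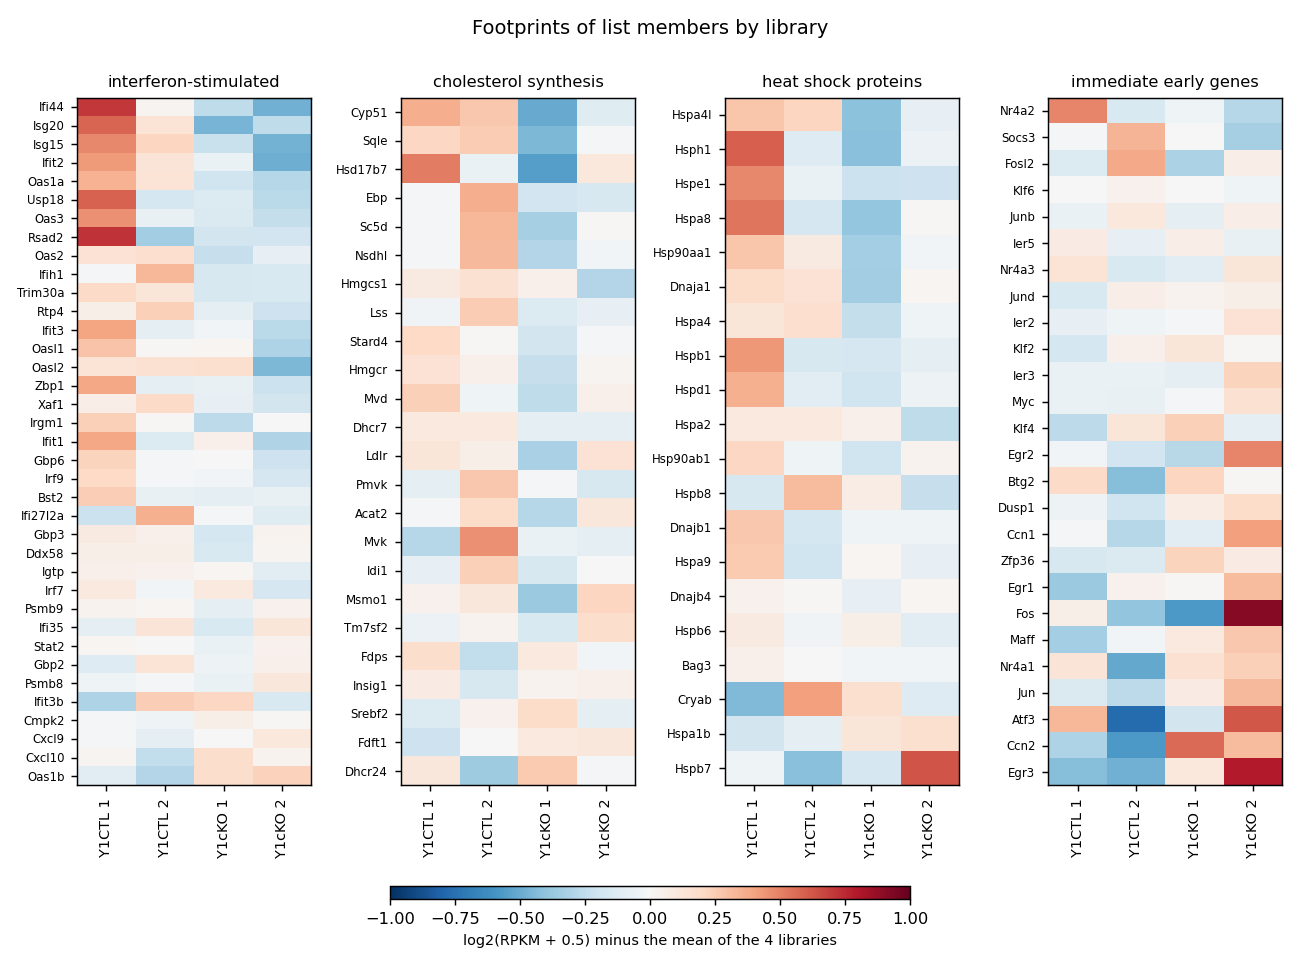
Footprints of the members of 4 lists, 1 interferon-stimulated gene left out, in the 4 Ribo-seq libraries, as log2(RPKM + 0.5) minus the mean of the 4 libraries, red above and blue below it; genes are ordered by their log2 fold change. In the whole interferon-stimulated list 32 of 38 genes are lower in Y1cKO, and Y1CTL replicate 1 is mostly red, while in cholesterol synthesis Y1cKO replicate 1 is mostly blue.

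Immediate early genes, transcription factors and regulators that respond within minutes to hormones and stress, were higher in 20 of 26 genes (median 0.18, 0.058 to 0.23 with each library left out, the weakest without Y1cKO replicate 2). The Y1cKO values were the 2 highest in 9 genes and the 2 lowest in 0, beside 15.4% and 14.1% of all genes. Ccn2, a matricellular protein and target of YAP, had 2.91 and 2.34 RPKM in Y1CTL and 5.74 and 4.77 RPKM in Y1cKO (log2 fold change 0.88, SE 0.21), and Egr3 had 1.597 and 1.52 RPKM in Y1CTL and 2.54 and 4.39 RPKM in Y1cKO. Jun, a subunit of AP-1, had 20.5 and 18.97 RPKM in Y1CTL and 24.1 and 28.7 RPKM in Y1cKO, and Zfp36, which destabilizes inflammatory mRNAs, had 17.4 and 17.6 RPKM in Y1CTL and 22.7 and 20.6 RPKM in Y1cKO. Y1cKO replicate 2 was the highest library for Egr3 and Jun. Fos, with 2.14 and 1.43 RPKM in Y1CTL and 1.199 and 4.27 RPKM in Y1cKO, was high in Y1cKO replicate 2 alone, and Junb (18.7 and 21.1 RPKM in Y1CTL and 18.2 and 20.5 RPKM in Y1cKO) overlapped. In the insulin signaling list, with a median of -0.0092, Irs2, an insulin receptor substrate, had 2.701 and 2.67 RPKM in Y1CTL and 6.15 and 3.24 RPKM in Y1cKO.

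Clock genes were mixed. Over 20 clock genes 10 were lower and 10 higher (median -0.0035). Dbp, a transcription factor driven directly by the clock, had 6.14 and 4.596 RPKM in Y1CTL and 2.91 and 2.38 RPKM in Y1cKO (log2 fold change -0.89, SE 0.23), from at least 21 reads a library, and Bhlhe40, a repressor of clock genes that also marks differentiation of adipocytes, had 87.4 and 107 RPKM in Y1CTL and 56.5 and 74.4 RPKM in Y1cKO (log2 fold change -0.57, SE 0.19). Both Y1cKO libraries were the lowest for each, as for Nr1d2 (4.54 and 4.79 RPKM in Y1CTL and 3.77 and 3.71 RPKM in Y1cKO), and the highest for Npas2 (2.100 and 1.94 RPKM in Y1CTL and 3.39 and 2.22 RPKM in Y1cKO). Tef, a relative of Dbp, overlapped (18.1 and 15.9 RPKM in Y1CTL and 15.7 and 19.9 RPKM in Y1cKO). The hour of sampling is not stated.

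Components of the translation machinery are described by class. Among 80 cytosolic ribosomal proteins 78 were higher in Y1cKO, with a median of 0.21, and both Y1cKO libraries were the highest in 23 and the lowest in 0 (15.4% and 14.1% over all genes). Rpl41, the smallest ribosomal protein, had 374 and 367 RPKM in Y1CTL and 636 and 495 RPKM in Y1cKO (log2 fold change 0.60, SE 0.18), Rpl34 274 and 202 RPKM in Y1CTL and 361 and 302 RPKM in Y1cKO, and Rpl22 245 and 213 RPKM in Y1CTL and 323 and 278 RPKM in Y1cKO. The median level of the family was 373 and 303 RPKM in Y1CTL and 432 and 388 RPKM in Y1cKO, so that Y1CTL replicate 2 stood lowest, and without it the median log2 fold change was 0.046, against 0.40 without Y1CTL replicate 1. Ribosomal protein genes have many processed copies in the genome that may take some of their reads. Mitochondrial ribosomal proteins were higher in 61 of 78 (median 0.089, 0.00085 to 0.14), among them Mrpl23 (56.4 and 54.2 RPKM in Y1CTL and 75.6 and 69.3 RPKM in Y1cKO).

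Initiation and elongation factors were mixed, with 25 lower and 38 higher of 63 (median 0.047). Eif5b, the GTPase that joins the ribosomal subunits, had 13.03 and 19.02 RPKM in Y1CTL and 7.897 and 9.83 RPKM in Y1cKO (log2 fold change -0.80, SE 0.23), with both Y1cKO libraries the lowest. Eif4a2, an initiation helicase, had 125 and 89.2 RPKM in Y1CTL and 147 and 152 RPKM in Y1cKO, and Eif4ebp3, which sequesters the cap-binding protein, had 5.56 and 5.38 RPKM in Y1CTL and 8.67 and 7.67 RPKM in Y1cKO (log2 fold change 0.54, SE 0.17). These 2 stood in the opposite order to Eif5b. Eef1a1, the most abundant factor, overlapped (1963 and 1512 RPKM in Y1CTL and 1808 and 1708 RPKM in Y1cKO). Aminoacyl-tRNA synthetases had a median of -0.028 (20 of 35 lower) and the proteasome of -0.046 (36 of 47 lower, both Y1cKO libraries the lowest in 14, beside 14.1% of all genes). Psma1, a subunit of its core, had 286 and 267 RPKM in Y1CTL and 226 and 243 RPKM in Y1cKO. In the integrated stress response, Trib3 had 2.06 and 2.56 RPKM in Y1CTL and 3.86 and 3.86 RPKM in Y1cKO and Ddit4, an inhibitor of mTORC1, 16.8 and 11.5 RPKM in Y1CTL and 26.9 and 18.2 RPKM in Y1cKO, both higher, whereas Slc3a2, an amino acid transporter chain, had 150.5 and 142 RPKM in Y1CTL and 113 and 114 RPKM in Y1cKO and was lower (list median 0.033).

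Most respiratory chain subunits had higher footprints in Y1cKO with all libraries kept, and the size of this difference depended on the controls. In complex I, 37 of 38 subunits were higher (median 0.23), but without Y1CTL replicate 2 the median was 0.0094, against 0.010 over all genes. In complexes III and IV, 9 of 9 and 14 of 14 were higher (medians 0.29 and 0.30, 0.045 and 0.13 without Y1CTL replicate 2). In ATP synthase 14 of 16 were higher (median 0.17, -0.0041 without Y1CTL replicate 2). Ndufs6 had 407 and 337 RPKM in Y1CTL and 462 and 486 RPKM in Y1cKO, Uqcrq 3018 and 2596 RPKM in Y1CTL and 3879 and 3232 RPKM in Y1cKO, and Cox8a 3986 and 3103 RPKM in Y1CTL and 5422 and 4487 RPKM in Y1cKO, with both Y1cKO libraries the highest of the 4 in each. Atp5j, a stalk subunit of ATP synthase, had 596 and 919.9 RPKM in Y1CTL and 567 and 637 RPKM in Y1cKO and overlapped.

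The 10 mitochondrially encoded genes tested, translated on mitochondrial ribosomes, were all higher, with a median of 0.53 that ranged from 0.19 without Y1cKO replicate 1 to 0.81 without Y1cKO replicate 2. Their footprints summed to 99285 and 63482 RPKM in Y1CTL and 130837 and 100317 RPKM in Y1cKO. Y1CTL replicate 2 was the lowest and Y1cKO replicate 1 the highest of these sums. mt-Nd6, encoded on the strand opposite to the others, had 1910.2 and 1507 RPKM in Y1CTL and 3197 and 2081 RPKM in Y1cKO. mt-Nd3 had 2988 and 2320.2 RPKM in Y1CTL and 4916 and 3018 RPKM in Y1cKO, and mt-Co2 17260.0 and 8804 RPKM in Y1CTL and 24591 and 15236 RPKM in Y1cKO. Both Y1cKO libraries were the highest for mt-Nd6 and mt-Nd3, and mt-Co2 overlapped.

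For 25 thermogenic genes of beige adipocytes, the 2 controls differed more from each other than the genotypes did. Ucp1 had 3586 and 955 RPKM in Y1CTL and 3164 and 2481 RPKM in Y1cKO, and Cidea, a lipid droplet protein of thermogenic fat, 2457 and 741 RPKM in Y1CTL and 1857 and 1632 RPKM in Y1cKO. Cox7a1 had 1561 and 652 RPKM in Y1CTL and 1992 and 1413 RPKM in Y1cKO. Y1CTL replicate 2 was the lowest library for all 3, and Y1CTL replicate 1 the highest for Ucp1 and Cidea. Of all 25 genes 19 were higher (median 0.28), with a median of 1.04 when Y1CTL replicate 1 was left out and of -0.20 when Y1CTL replicate 2 was, while Y1CTL replicate 1 exceeded Y1CTL replicate 2 by a median of 1.26 on the log2 scale. Among regulators, the coactivator Ppargc1a had 6.03 and 5.28 RPKM in Y1CTL and 5.63 and 4.21 RPKM in Y1cKO, and the determinant Prdm16 had 2.66 and 2.06 RPKM in Y1CTL and 2.25 and 2.34 RPKM in Y1cKO, which overlapped. Tbx1, a transcription factor of beige adipocytes, had 3.57 and 1.39 RPKM in Y1CTL and 4.02 and 3.099 RPKM in Y1cKO. Ebf2, an adipogenic factor, had 10.3 and 17.003 RPKM in Y1CTL and 11.5 and 9.24 RPKM in Y1cKO. Tbx1 and Ebf2 thus differed between the controls, in opposite directions. Pparg, the master regulator of adipocytes, had 192 and 202 RPKM in Y1CTL and 201 and 226 RPKM in Y1cKO. Adrb3, the receptor through which cold acts on adipocytes, had 39.4 and 41.9 RPKM in Y1CTL and 44.1 and 39.9 RPKM in Y1cKO. By RNA-seq the 25 genes summed to 2281 and 3785 RPKM in Y1CTL and 699 and 2020 RPKM in Y1cKO. Ucp1 had 609 and 1441 RPKM in Y1CTL and 48.1 and 544 RPKM in Y1cKO by RNA-seq. Both Y1cKO libraries were the lowest and Y1CTL replicate 2 the highest in each case, unlike in the footprints. Pparg and Adrb3 were higher in both Y1cKO libraries by RNA-seq. The reason for these differences was not tested.

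Bmp8b, a secreted factor of thermogenic fat, had 6.48 and 0.681 RPKM in Y1CTL and 0.439 and 0.277 RPKM in Y1cKO. Both Y1cKO libraries lay below both controls, but 1 control library decided the size, since the reads were 92 and 6 in Y1CTL and 5 and 3 in Y1cKO (log2 fold change -1.75, SE 0.76, adjusted p = 1.00 from limma). Without Y1CTL replicate 2 its log2 fold change was -3.03 (adjusted p = 0.0112 from limma), whereas with Y1CTL replicate 1 left out it was -0.47 (adjusted p = 0.78). Its neighbour Bmp8a, a close paralog with which it may share some reads, was below the minimum, with 3 and 5 reads in Y1CTL and 5 and 7 in Y1cKO. Of 32 BMP ligands, receptors and targets 8 were lower and 24 higher (median 0.092, -0.085 to 0.21 with each library left out in turn). The signal transducer Smad5 had 11.7 and 12.3 RPKM in Y1CTL and 15.1 and 15.2 RPKM in Y1cKO, and the target Id1 had 53.02 and 43.4 RPKM in Y1CTL and 33.2 and 44.6 RPKM in Y1cKO.

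Lists of lipid uptake and synthesis had medians below 0. Lipoprotein lipase and lipid uptake genes were lower in 19 of 23 (median -0.15, -0.26 to -0.050 with each library left out), with both Y1cKO libraries the lowest in 9 and the highest in 0, beside 14.1% and 15.4% of all genes. Lpl had 9250.4 and 8694 RPKM in Y1CTL and 5899.7 and 6569.5 RPKM in Y1cKO (log2 fold change -0.53, SE 0.28). Fabp5, a fatty acid binding protein, had 1881 and 2038 RPKM in Y1CTL and 1629.8 and 1459.8 RPKM in Y1cKO. De novo lipogenesis had a median of -0.071 (14 of 23 lower), where Scd2 and Me1 stood apart with 584 and 594 RPKM in Y1CTL and 329 and 453 RPKM in Y1cKO, and 2921 and 3673 RPKM in Y1CTL and 2058 and 2340.2 RPKM in Y1cKO. Mlxipl, the carbohydrate-sensing factor ChREBP, stood in the opposite order (28.98 and 26.1 RPKM in Y1CTL and 37.4 and 29.9 RPKM in Y1cKO). Triglyceride synthesis (11 of 19 lower) had a median of -0.053 that was 0.16 without Y1CTL replicate 1, and Mogat1, a relative of Mogat2, had 47.8 and 62.96 RPKM in Y1CTL and 34.2 and 45.6 RPKM in Y1cKO.

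Fat and fuel oxidation turned direction with the control used. Fatty acid oxidation had a median of 0.069 (18 of 26 higher), which was -0.21 against Y1CTL replicate 1 alone and 0.33 against Y1CTL replicate 2 alone. The citrate cycle had 0.10 (24 of 29 higher), with -0.10 and 0.33 in these cases. Ehhadh, a peroxisomal enzyme, had 142 and 59.95 RPKM in Y1CTL and 56.1 and 60.6 RPKM in Y1cKO, high in Y1CTL replicate 1 alone. Pdk1, which slows entry of pyruvate into the cycle, had 32.6 and 31.5 RPKM in Y1CTL and 43.2 and 41.7 RPKM in Y1cKO (log2 fold change 0.40, SE 0.13), and Pcx, pyruvate carboxylase, had 710.4 and 1039 RPKM in Y1CTL and 566 and 687 RPKM in Y1cKO. Both Y1cKO libraries were the highest for Pdk1 and the lowest for Pcx. Glycolysis had 10 lower and 12 higher of 22 (median 0.026).

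Among extracellular proteins, the basement membrane collagens Col4a1 and Col4a2, which share a promoter and assemble together, had 197 and 203 RPKM in Y1CTL and 125 and 159.9 RPKM in Y1cKO, and 153 and 159 RPKM in Y1CTL and 98.01 and 124 RPKM in Y1cKO, with both Y1cKO libraries the lowest. Nid2, another basement membrane protein, had 24.5 and 30.6 RPKM in Y1CTL and 17.9 and 22.2 RPKM in Y1cKO. Fibrillar collagens overlapped, with 417 and 548 RPKM in Y1CTL and 314 and 764 RPKM in Y1cKO for Col3a1, and 256 and 424 RPKM in Y1CTL and 247 and 539 RPKM in Y1cKO for Col1a2, and differed more within each genotype than between them. Collagens as a list had 15 lower of 25 (median -0.039, -0.35 to 0.16 with each library left out). Among adipokines and secreted factors 19 of 28 were lower (median -0.057, 0.025 without Y1CTL replicate 2). Rbp4, the retinol binding protein, had 515 and 759 RPKM in Y1CTL and 401 and 421 RPKM in Y1cKO (log2 fold change -0.61, SE 0.22), with both Y1cKO libraries the lowest, whereas Adipoq (2961 and 4113 RPKM in Y1CTL and 2840.0 and 3044 RPKM in Y1cKO), Retn (2032 and 3425 RPKM in Y1CTL and 2329.6 and 1927 RPKM in Y1cKO) and Lep (155 and 305 RPKM in Y1CTL and 195 and 227 RPKM in Y1cKO) overlapped, and Y1CTL replicate 2 was the highest for all 4.

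Iron, heme and antioxidant genes had 13 lower and 20 higher of 33 (median 0.077). Beside Hmox1, which was lower, the metallothionein Mt2 had 21.1 and 27.4 RPKM in Y1CTL and 30.4 and 38.8 RPKM in Y1cKO and the secreted glutathione peroxidase Gpx3 191 and 293 RPKM in Y1CTL and 377 and 303 RPKM in Y1cKO, both higher. Chemokines had 19 higher of 26 (median 0.18, 0.046 to 0.21 with each library left out), with Ccl21a, which guides lymphocytes and has close copies that may share reads, at 262 and 215 RPKM in Y1CTL and 342 and 285 RPKM in Y1cKO. Ccl2, which attracts monocytes, stood in the opposite order, with 14.999 and 14.98 RPKM in Y1CTL and 8.29 and 12.5 RPKM in Y1cKO. Genes of antigen presentation had a median of 0.044.

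Markers of other cells differed beside these lists, and their part in the results was not tested. All 7 adipocyte markers were lower in Y1cKO (median -0.061, 0.060 without Y1CTL replicate 2, the highest library for each). Mural markers were lower in 5 of 6 (median -0.16, 0.0085 without Y1CTL replicate 1), and lymphatic endothelial markers higher in 5 of 6 (median 0.18, 0.074 to 0.37 with each library left out). All 7 B cell markers were higher in Y1cKO (median 0.20), among them Cd79a with 237 and 216 RPKM in Y1CTL and 277 and 293 RPKM in Y1cKO, and 6 of 7 T cell markers were higher (median 0.24), among them Cd2 with 42.1 and 35.9 RPKM in Y1CTL and 48.5 and 52.1 RPKM in Y1cKO. B cell markers summed as given above, and T cell markers summed to 462 and 373 RPKM in Y1CTL and 465 and 487 RPKM in Y1cKO. All 8 endothelial markers were lower (median -0.14, 0.12 without Y1CTL replicate 1), with Cdh5 at 209 and 117 RPKM in Y1CTL and 108 and 161 RPKM in Y1cKO. All 5 erythroid markers tested were lower (median -0.60, -0.13 without Y1CTL replicate 1), with Alas2 at 25.04 and 13.6 RPKM in Y1CTL and 9.31 and 14.8 RPKM in Y1cKO, and both these lists were highest in Y1CTL replicate 1. Hemoglobin genes have near-identical copies. Jchain, of plasma cells, had 1239 and 190.2 RPKM in Y1CTL and 408 and 479 RPKM in Y1cKO, and neutrophil markers summed to 395 and 199 RPKM in Y1CTL and 232 and 351 RPKM in Y1cKO, highest in Y1CTL replicate 1 and Y1cKO replicate 2. Progenitor and fibroblast markers were higher in 7 of 9 (median 0.14, -0.16 without Y1CTL replicate 1). Skeletal muscle was nearly absent, with 3 of 10 markers tested and a sum of 5.22 and 7.54 RPKM in Y1CTL and 4.87 and 10.3 RPKM in Y1cKO.

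The difference between the genotypes varied with coding length, and so did the differences within each genotype. Over 5 groups of equal size, from the shortest coding sequences (111 to 735 nucleotides) to the longest (2436 to 26397), the median log2 fold change went from 0.085 over 0.029, 0.0052 and -0.011 to -0.043. The Y1cKO values were the 2 highest in 23.5% of the shortest and 9.04% of the longest group, and the 2 lowest in 8.93% and 20.1%. Without the ribosomal protein and respiratory chain genes the shortest group had a median of 0.072. With each library left out in turn, the shortest group had the highest median (0.057 to 0.093) and the longest the lowest (-0.11 to 0.021). Ribosomal proteins and respiratory chain subunits are mostly short. Of the genes lower in Y1cKO, Chd4 and Col4a2 fall in the longest group and Top1 in the group next to it. Between replicate 1 and replicate 2 of Y1CTL the median log2 difference went from 0.038 in the shortest to -0.062 in the longest group, and between those of Y1cKO from -0.011 to -0.13. These spans are about as large as the one between genotypes. How far coding length enters the medians of the lists was not tested.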

How the data were processed

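The study's methods describe RNA-seq from polyadenylated RNA, enriched out of total RNA. Ribo-seq started from cold-exposed iWAT in polysome lysis buffer, digested with RNase I. Whether libraries of the 2 assays with the same replicate number share a lysate was not tested, and their B cell markers differed as given above. The authors deposited RPKM per gene for each library, which is over coding length in the Ribo-seq tables, as testing it on the files showed. The submitters' processing notes name HISAT2 2.2.1, DESeq2 and the mm8 build without their roles. Here, log2(RPKM + 0.5), a scale that understates the change of low genes, was tested with limma 3.58.1 in R 4.3.3 (trended variance, Benjamini-Hochberg adjustment over 12602 genes). Reads were computed back from the smallest steps of RPKM, since a read is worth a fixed amount per length. The result was within 0.01 of a whole read for 100% of values and summed to 7364523 to 11862838 a library. With 2 libraries against 2, an exact two-sided test of a single value cannot go below p = 0.333. Summaries and plots used Python 3.11.15, numpy 2.4.6, pandas 2.3.3 and matplotlib 3.10.9.

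Named genes were Ythdf1 to Ythdf3, Bmp8a, Bmp8b and the thermogenic genes of the study, the 12 largest differences in each direction among separated genes with an unadjusted p under 0.05, the 12 with the smallest p in each direction among separated genes averaging 20 RPKM or more, from each list the 4 genes of smallest p and the 2 most abundant ones, and the 10 most abundant genes. A part of these is given. Other named genes, such as Elovl3, Gk, Fabp3, Oxtr, Pla2g2e, Me3 and further members of the interferon, m6A and immediate early lists, were chosen after their values were seen. Members and lists were chosen with earlier results of these data known. The promoter motif, the split by coding length and the comparison of lists with all genes were added after the data were seen. Alternatives were other pseudocounts and minimums, other scalings, no variance trend, library weights, voom, a fit on all 8 libraries, each library left out, and a replicate block. Near-identical gene copies may share reads, and their values are uncertain. Some genes that met these rules are not reported here.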

Additional observations from a re-analysis of the deposited data

How the results depend on the processing

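With limma, 0 genes passed an adjusted p of 0.05 with every library kept, under each pseudocount, minimum, scaling and variance setting and by voom, and 0 to 49 passed with 1 library left out. Against 20 lower and 17 higher genes beyond a log2 change of 1 with an unadjusted p under 0.05, a pseudocount of 0.1 gave 31 and 40, a pseudocount of 1 gave 10 and 9, and a minimum of 5 RPKM gave 5 and 5. Voom on reads gave 32 higher genes, and leaving out 1 library gave 30 to 66 lower and 33 to 142 higher genes. These counts thus depend on the pseudocount, on the minimum and on single libraries, and 14 of the genes in each direction had under 10 reads in a library. Without Y1CTL replicate 1, other lists had lower medians than interferon-stimulated genes (-0.12), such as adipokines (-0.28) and cholesterol synthesis (-0.19), and without Y1CTL replicate 2 heat shock proteins did (-0.29 against -0.25).

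The replicate numbers do not come from a shared source in the labels. Deviations of same-numbered libraries from their group means correlated at 0.0331 over 12602 genes. Since each genotype has 2 libraries, the 2 pairs give the same value by construction. With a replicate block limma called 0 genes at an adjusted p of 0.05, 381 at an unadjusted p under 0.05, and 25 lower and 18 higher genes beyond a log2 change of 1. The log2 fold change of Ythdf1 kept its sign under every alternative run.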
